A study of Mus musculus with 40 samples.

Results

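Metaphase I and Pachytene spermatocytes with little Aurka transcript were compared, 5 single cells against 7, out of 40 sequenced cells of the mouse testis. The cells were selected on measured values. A cell was kept when it had under 300 CPM (counts per 1000000 counts of that cell) of Aurka, under 100 CPM of Acrv1 and under 1000 CPM of Clu. Aurka encodes a kinase of the meiotic spindle, Acrv1 an acrosome protein of spermatids, and Clu clusterin, a product of the somatic Sertoli cells. Of the 20 Metaphase I cells, replicates 1, 13, 14, 15 and 18 were kept, and of the 20 Pachytene cells, replicates 5, 10, 13, 14, 16, 17 and 18. Aurka at or over the limit left out 14 Metaphase I and 9 Pachytene cells, and Acrv1 left out 1 and 4 more.

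All 40 came from C57BL/6J testes, the mice being 6 to 8 weeks old. According to the labels' protocols, pachytene spermatocytes were fractionated by centrifugal elutriation, which separates cells by size, and 4 µM okadaic acid for 5 h was used to bring them to metaphase I. Okadaic acid blocks serine/threonine phosphatases, foremost PP2A and PP1. The same text stands on every cell, and the groups are named by the titles and the cell type label. The Metaphase I cells are taken as the ones given the drug, and nothing used here states whether the Pachytene cells were cultured without it, so stage, drug and time in culture cannot be told apart. What the replicate numbers stand for is not stated, and Clu counts in Metaphase I followed them, as given below. No animal or culture is named, so the cells of a group count as 1 sample. There is therefore no test and no p-value, and all values describe these cells.

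During pachytene, a stage of prophase I, homologous chromosomes are joined along their length by the synaptonemal complex and crossovers mature between them. Spermatocytes then pass through diplotene to metaphase I, where cyclin B with CDK1 drives spindle assembly and the aurora kinases act at poles and centromeres. Many transcripts of later prophase, among them those of Aurka and the B cyclins, accumulate before division, while those of recombination proteins are at their highest earlier.

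In the kept cells Aurka was at 171, 176, 159.8, 149 and 229 CPM in the Metaphase I cells and at 273, 153, 263, 138, 153, 176 and 136 CPM in the Pachytene cells, in order of replicate number. Just inside the limit lay Pachytene replicates 5 and 13 at 273 and 263 CPM, and just outside it Metaphase I replicates 19 and 10 at 317 and 319 CPM, of which the first also exceeded the Clu limit. The plot of Aurka by cell shows these values against the limit.

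**Figure D1:**
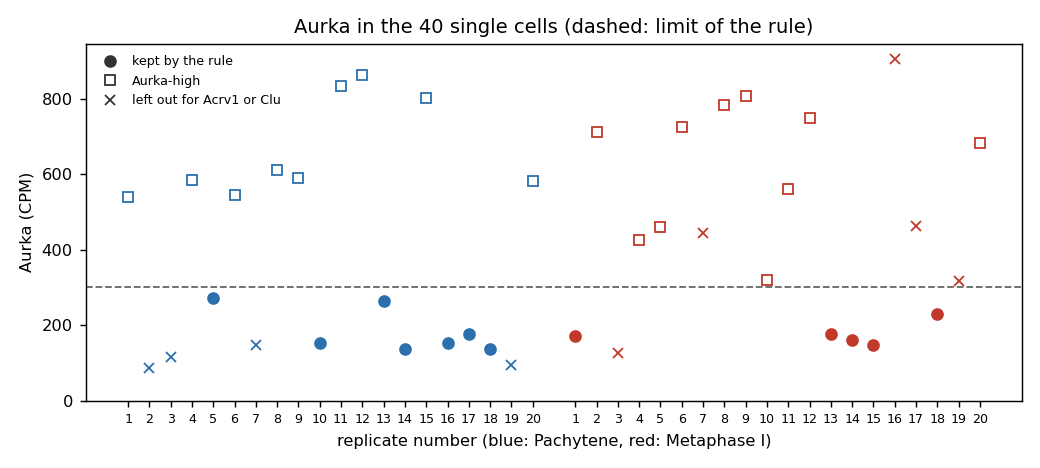
Aurka in CPM (y axis, linear) in each of the 40 cells by replicate number (x axis), Pachytene in blue and Metaphase I in red. Filled circles are the 12 kept cells, all under the dashed line at 300 CPM, open squares the 19 cells over the line that met the Acrv1 and Clu limits, and crosses the cells left out for Acrv1 or Clu.

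The 7 metaphase markers (Aurka, Ccnb1, Ccnb2, Plk1, Cdc20, Bub1b and Tpx2) summed to 818 to 1323 CPM (median 1013) in the kept Metaphase I cells and to 745 to 1009 CPM (median 875) in the kept Pachytene cells. The ranges overlapped, and none of the 7 was at 0 in a whole group. Aurka is part of this sum and was limited to under 300 CPM in both groups by the selection. Ccnb1, 1 of the 7, had a log2 ratio of -1.11, and -1.38 without the 2 cells, so its level was lower in the cells labelled Metaphase I. It encodes the cyclin B1 of M phase and measured 4.15, 4.01, 3.92, 7.96 and 68.4 CPM in the Metaphase I cells and 188, 4.59, 13.8, 36.4, 12.7, 9.71 and 10.8 CPM in the Pachytene cells. In the 10 Metaphase I cells at or over 300 CPM of Aurka that met the Acrv1 and Clu limits, Ccnb1 ran over 22.7 to 505 CPM (median 430.0), and 4 of the 5 kept cells were below the lowest of those 10. The group names below are those of the labels. Spermatocyte genes were present throughout, and none of 10 spermatocyte markers was at 0 in a whole group. Ldhc, the testis lactate dehydrogenase subunit, measured 18426, 14691, 16844, 18174 and 5453 CPM in the Metaphase I cells and 12021 to 22367 CPM (median 18482) in the Pachytene cells.

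A pair of kept cells stood apart. Pachytene replicate 5 had the smallest total, 165048 counts, with 7.12% of counts from mitochondrial genes and 0.121% from X-linked genes. Metaphase I replicate 18 had 336147 counts, 11.2% of them mitochondrial, and the lowest Ldhc of the 12. The other 10 cells had 558125 to 1497037 counts, and their mitochondrial share was 1.84% to 3.67%. Medians of the totals were 1020092 counts in the Metaphase I and 720870 in the Pachytene cells. Each result below is given with all 12 cells and, where it names "without the 2 cells", without Pachytene replicate 5 and Metaphase I replicate 18. A count of 0 allows up to 18.2 CPM (3 counts) in Pachytene replicate 5 and 2.00 to 8.92 CPM in the other 11 cells, for counting error only.

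The sequences just upstream of the start sites are shown for the 3 genes that mark these cells, Hfm1, Dazl and Atf4, and for 2 genes of the amino acid response, Chac1 and Tars. They are the 250 bases before the RefSeq start on GRCm38.p6, read 5′ to 3′ on the gene's strand. Capitals mark the letters TGATGNAA on either strand, the core of the element through which ATF4 acts on amino acid response genes. The windows are chr5:106925891-106926140 (minus strand) for Hfm1, chr17:50293621-50293870 (minus) for Dazl, chr15:80254934-80255183 (plus) for Atf4, chr2:119350992-119351241 (plus) for Chac1 and chr15:11399659-11399908 (minus) for Tars. Hfm1 as counted here reaches 106926321, so its window lies within the counted span and not upstream of it.
Hfm1: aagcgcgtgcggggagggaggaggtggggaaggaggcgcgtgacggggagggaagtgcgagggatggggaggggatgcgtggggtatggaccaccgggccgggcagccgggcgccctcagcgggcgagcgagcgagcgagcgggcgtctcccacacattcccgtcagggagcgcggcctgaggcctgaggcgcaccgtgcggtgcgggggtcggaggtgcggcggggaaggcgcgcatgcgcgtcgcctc
Dazl: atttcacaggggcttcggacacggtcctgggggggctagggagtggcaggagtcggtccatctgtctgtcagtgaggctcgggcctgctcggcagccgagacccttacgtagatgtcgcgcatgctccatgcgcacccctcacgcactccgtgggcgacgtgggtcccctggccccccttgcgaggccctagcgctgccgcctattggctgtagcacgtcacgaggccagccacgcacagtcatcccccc
Atf4: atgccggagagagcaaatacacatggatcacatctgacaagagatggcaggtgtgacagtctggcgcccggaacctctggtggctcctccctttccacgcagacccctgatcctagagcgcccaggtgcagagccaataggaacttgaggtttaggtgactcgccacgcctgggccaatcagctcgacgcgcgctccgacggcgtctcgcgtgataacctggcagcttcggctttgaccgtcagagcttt
Chac1: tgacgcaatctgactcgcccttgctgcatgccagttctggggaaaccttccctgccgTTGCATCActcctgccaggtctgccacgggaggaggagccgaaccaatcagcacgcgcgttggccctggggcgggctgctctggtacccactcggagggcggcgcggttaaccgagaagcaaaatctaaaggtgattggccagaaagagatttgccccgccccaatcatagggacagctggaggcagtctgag
Tars: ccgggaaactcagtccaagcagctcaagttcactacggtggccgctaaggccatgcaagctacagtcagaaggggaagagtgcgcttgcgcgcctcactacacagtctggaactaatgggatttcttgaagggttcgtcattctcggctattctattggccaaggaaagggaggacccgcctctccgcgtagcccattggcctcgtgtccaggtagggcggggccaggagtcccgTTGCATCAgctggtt
The letters stood once in the Chac1 window, from 193 bases before the start, and once in the Tars window, from 15 bases before it. They were found in none of the Hfm1, Dazl and Atf4 windows. Of 32851 such RefSeq windows, 3.45% held them, and of the 10072 windows of measured genes 1.89%. Only 7962 of the 10823 measured genes (73.6%) matched a window, so the 1.89% covers part of them. The cAMP response element TGACGTCA, its own complement, was in 1.55% of all windows and in none of these 5.

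Levels are means of CPM over the cells of a group, each cell weighted equally, and log2 ratios divide the Metaphase I mean by the Pachytene mean after adding 1 CPM to each. A gene was measured when its counts over the 12 cells summed to 20 or more. Of 10823 measured genes, 1682 (15.5%) exceeded 2-fold towards the Metaphase I cells and 1131 (10.4%) towards the Pachytene cells. In 35 genes (0.323%) every Metaphase I cell lay above every Pachytene cell, and in 27 genes (0.249%) every one lay below. The log2 ratio of all measured genes had a median of 0.09 and quartiles of -0.40 and 0.64. Numbers of list members below are to be read against these shares.

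Without the 2 cells, 10347 genes were measured, of which 970 (9.37%) were over 2-fold higher and 1179 (11.4%) over 2-fold lower, and the median log2 ratio was 0.03. The higher genes shared with the comparison of all 12 cells numbered 744, and the lower ones 760. With 4 cells against 6, 155 genes (1.5%) had all Metaphase I cells above and 120 (1.16%) all below, and fewer cells make such separation easier. Of the genes over 2-fold either way, 59.8% were higher with all cells, 42.6% without Metaphase I replicate 18 alone and 45.1% without the 2 cells. In the 19 cells at or over 300 CPM of Aurka that met the other limits, 10 Metaphase I and 9 Pachytene, 417 of 11653 measured genes (3.58%) were over 2-fold higher and 640 (5.49%) over 2-fold lower. There 0 genes (0%) had all Metaphase I cells above and 0 (0%) all below, with more cells to separate. Whether the Aurka-low and Aurka-high contrasts differ was not tested, since each group is 1 sample. Numbers of list members without the 2 cells or in the Aurka-high cells are to be read against the shares given here for those cells.

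The 12 cells fell only in part into their groups by overall similarity. The median Spearman correlation across measured genes was 0.84 for 2 Metaphase I cells, 0.84 for 2 Pachytene cells and 0.81 for a cell of each. Without the 2 cells that stood apart these medians were 0.85, 0.85 and 0.83. Genes are not independent replicates, and depth differs between the cells. For Metaphase I replicates 1, 13, 14 and 15 the most similar of the other 11 cells was Pachytene replicate 16, at 0.87, 0.85, 0.87 and 0.87. The cell most similar to Pachytene replicate 16 was Metaphase I replicate 1. For Pachytene replicates 10, 13 and 18 it was Pachytene replicate 17. Pachytene replicates 5, 14 and 17 were also most similar to another Pachytene cell, and Metaphase I replicate 18 to Pachytene replicate 14. Pachytene replicate 5 reached at most 0.65 with any cell and Metaphase I replicate 18 at most 0.64.

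Hfm1 was the marker gene on which the kept cells of the groups separated. Its product is a DNA helicase needed for crossover formation (chromosome 5, 106840192 to 106926321, minus strand). It measured 66.4, 194, 99, 111 and 68.4 CPM in Metaphase I replicates 1, 13, 14, 15 and 18, and 18.2, 58.2, 9.22, 36.4, 40.7, 16.6 and 12.5 CPM in Pachytene replicates 5, 10, 13, 14, 16, 17 and 18. Every Metaphase I cell was above every Pachytene cell, the nearest being Metaphase I replicate 1 and Pachytene replicate 10. This separation depended on the limits of the selection. Metaphase I replicate 10, just over the Aurka limit, had 51.8 CPM, below Pachytene replicate 10. Pachytene replicate 3, left out for Acrv1, had 84.6 CPM, above Metaphase I replicates 1 and 18. The log2 ratio was 1.94, and 1.98 without the 2 cells. Summed counts were 604 and 140, a ratio per total count of 4.19 (3.48 to 5.08), an exact 95% interval for counting error only. Among the Aurka-high cells Hfm1 ran over 0 to 51.8 CPM (median 11.4) in Metaphase I and 1.77 to 17.1 CPM (median 5.22) in Pachytene, with a log2 ratio of 1.31.

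Dazl and Atf4 overlapped between the groups. Dazl, an RNA-binding regulator of translation in germ cells (chromosome 17, 50279395 to 50293636, minus strand), measured 148, 389, 319, 108 and 80.3 CPM in the Metaphase I and 515, 64.3, 93.3, 179, 150.2, 25 and 21.5 CPM in the Pachytene cells. Pachytene replicate 5 had the highest value of all 12. The log2 ratio was 0.48 with it and 1.43 without the 2 cells. Without Metaphase I replicate 13 it was 0.13. Atf4, the transcription factor of the integrated stress response (chromosome 15, 80255184 to 80257541, plus strand), measured 193, 178, 305, 151 and 62.5 CPM in the Metaphase I and 0, 91.9, 141, 97.2, 182, 74.9 and 142 CPM in the Pachytene cells. It had no count in Pachytene replicate 5, and Metaphase I replicate 18 was below 6 of the 7 Pachytene cells. The log2 ratio was 0.77, and 0.76 without the 2 cells.

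Both genes were at lower levels in the Aurka-high cells of either stage. In the Aurka-high cells Dazl ran over 0 to 36.3 CPM (median 3.91) in Metaphase I and 0 to 30.0 CPM (median 6.18) in Pachytene, with a log2 ratio of 0.09. Atf4 ran over 3.73 to 139.9 CPM (median 24.3) and 7.44 to 35.9 CPM (median 22.2), with a log2 ratio of 0.63. Metaphase I replicate 10, just over the Aurka limit, held the highest Atf4 of the Aurka-high cells, at 140 CPM, and had 51.8 CPM of Hfm1. These 3 genes were chosen for this comparison with its values known, so their levels are a description.

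**Figure D2:**
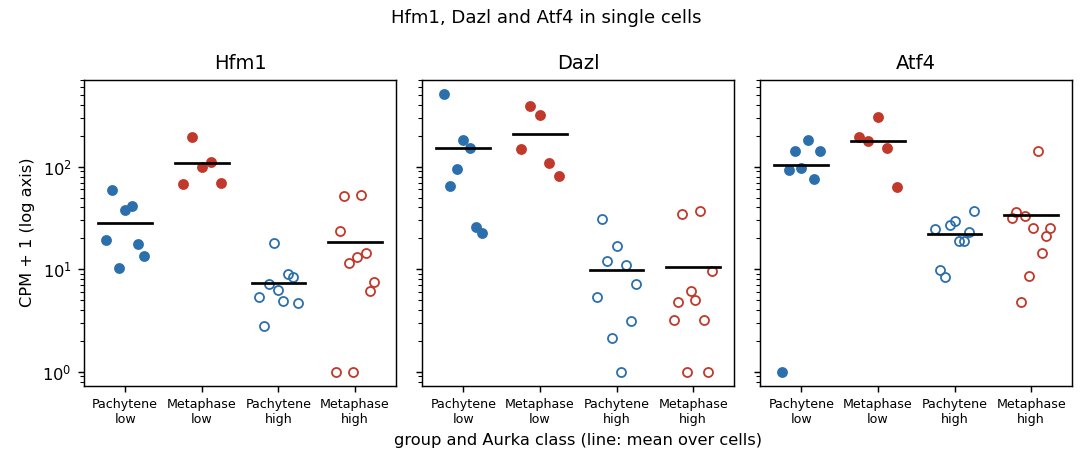
Hfm1, Dazl and Atf4 in single cells, as CPM + 1 on a log axis, for Pachytene (blue) and Metaphase I (red) cells under 300 CPM of Aurka (filled, 7 and 5 cells) and at or over it (open, 9 and 10 cells), with the mean as a line. For Hfm1 the 5 filled red points lie above all 7 filled blue points, while for Dazl and Atf4 they overlap.

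Listed genes of later prophase tended lower in the Metaphase I cells, but their summed level overlapped between the groups. Of 21 measured pachytene and diplotene transcription and marker genes, 0 were over 2-fold higher and 6 over 2-fold lower (Pou5f2, Ovol2, Pgk2, Ccna1, Aurkc and Rfx3). The 6 were 28.6% of the list, against 10.4% of all measured genes. The list's median log2 ratio was -0.39, against 0.09 for all measured genes. It was -0.30 without the 2 cells, with 0 higher and 7 lower, and 0.01 in the Aurka-high cells, with 0 and 0. The summed level of the list was 24190, 20052, 22464, 24381 and 11572 CPM in the Metaphase I cells and 19104, 27756, 29993, 23973, 22994, 25887 and 25643 CPM in the Pachytene cells, and the 2 cells that stood apart were the lowest of their groups. Pachytene replicates 5, 14 and 16 lay within the Metaphase I range, and replicates 10, 13, 17 and 18 above it.

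Tcfl5, a transcription factor of the pachytene programme (chromosome 2, 180621956 to 180642708, minus strand), was the member whose groups did not overlap. It measured 87.1, 90.8, 60.8, 86.7 and 32.7 CPM in the Metaphase I and 139, 110.2, 153, 120.1, 167, 155 and 149 CPM in the Pachytene cells (log2 ratio -0.98, and -0.80 without the 2 cells). Among the Aurka-high cells the log2 ratio was 0.41, the other direction. Its exons overlap those of Col9a3 on the opposite strand, and no source used here gives the strand setting of the counting.

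Pou5f2, which encodes a POU-domain transcription factor of spermatocytes (chromosome 13, 78024902 to 78026295, plus strand), was at 50.8, 6.01, 4.9, 17.7 and 20.8 CPM in the Metaphase I cells. In Pachytene replicates 10, 13, 17 and 18 it was at 222, 279, 314 and 174 CPM, but in replicates 5, 14 and 16 at 24.2, 10.8 and 4.52 CPM. The Pachytene cells thus spanned low and high values, and the Metaphase I cells lay among the low ones (log2 ratio -2.81, and -3.01 without the 2 cells). The Aurka-high cells were all above the Metaphase I cells of the comparison, at 60.1 to 420.1 CPM (median 313) in Metaphase I and 188 to 519 CPM (median 275) in Pachytene. With the Aurka limit at 400 CPM, which adds Metaphase I replicate 10, the log2 ratio was -0.92. Ovol2, a zinc finger transcription factor, measured 129, 106, 28.4, 13.3 and 77.3 CPM in the Metaphase I and 212, 193, 362, 59.4, 20.8, 301 and 206 CPM in the Pachytene cells (log2 ratio -1.44, and -1.45 without the 2 cells), with replicates 14 and 16 again the lowest of the 7. Pgk2, the autosomal phosphoglycerate kinase of the germ line, measured 107, 24.7, 32.4, 27.4 and 86.3 CPM in the Metaphase I and 212, 171, 176, 132, 58.8, 97.1 and 176 CPM in the Pachytene cells (log2 ratio -1.38, and -1.48 without the 2 cells).

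Several of the 15 named genes with the lowest ratios showed the same spread within Pachytene. To be named, a gene needed 100 summed counts, detection in 50% or more of the higher group, medians over 2-fold apart the same way, and no cell holding over 50% of that group's summed CPM. Atoh8, a basic helix-loop-helix factor (chromosome 6, 72206177 to 72235577), measured 11.4, 2, 2.94, 7.96 and 50.6 CPM in the Metaphase I cells and 121, 68.9, 169, 4.05, 7.24, 130.4 and 64.5 CPM in the Pachytene cells (log2 ratio -2.36, and -3.41 without the 2 cells). Ccdc178, named for its coiled coil (chromosome 18, 21810893 to 22171442), measured 41.5, 0.668, 0, 3.54 and 98.2 CPM in the Metaphase I and 442, 245, 343, 5.4, 2.71, 211 and 181 CPM in the Pachytene cells (log2 ratio -2.79, and -3.74 without the 2 cells). In both, Pachytene replicates 14 and 16 were the lowest of the 7. Msi2, an RNA-binding protein of the Musashi family, had the lowest ratio of the 15, with 5.18, 1.34, 1.96, 0 and 2.97 CPM in the Metaphase I and 42.4, 3.06, 19.6, 1.35, 8.14, 59.7 and 52 CPM in the Pachytene cells (log2 ratio -3.07, and -3.00 without the 2 cells). Grk3, a G protein-coupled receptor kinase, measured 5.18, 0.668, 0, 0 and 2.97 CPM in the Metaphase I and 6.06, 38.3, 27.7, 0, 2.71, 38.8 and 21.5 CPM in the Pachytene cells (log2 ratio -2.88, and -3.19 without the 2 cells).

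In 3 of the 15 every Metaphase I cell was below every Pachytene cell, replicates 14 and 16 included, against 0.249% of all measured genes. The 15 were picked for low ratios in these same cells, which favours such separation, so the count is a description. Ppp1r27, which encodes a regulatory subunit of the okadaic acid target PP1 (chromosome 11, 120549979 to 120551132), measured 0, 4.01, 6.86, 31 and 14.9 CPM in the Metaphase I and 36.4, 110.2, 85.3, 44.5, 34.4, 103 and 113 CPM in the Pachytene cells (log2 ratio -2.63, and -2.85 without the 2 cells). Tspan5, a tetraspanin membrane protein, measured 8.3, 1.34, 5.88, 10.6 and 2.97 CPM in the Metaphase I and 12.1, 44.4, 44.9, 25.6, 24.4, 34.7 and 46.6 CPM in the Pachytene cells (log2 ratio -2.33, and -2.33 without the 2 cells). Lrrc1, a leucine-rich repeat protein, measured 8.3, 4.68, 0.98, 14.2 and 20.8 CPM in the Metaphase I and 151, 47.5, 35.7, 33.7, 22.6, 43 and 34 CPM in the Pachytene cells (log2 ratio -2.31, and -2.21 without the 2 cells). The groups of these genes were close at their edges, as at 31.0 CPM for Ppp1r27 in Metaphase I replicate 15 and 34.4 CPM in Pachytene replicate 16. The other 8 of the 15 were Macrod1, C2cd2l, Rnf125, Cdc42se1, Prss47, Plxnb2 and Cyb5r2 with log2 ratios of -2.88 to -2.36, and Pou5f2 above. For all 15 genes the log2 ratio without the 2 cells was -4.17 to -1.43. In the Aurka-high cells the 15 log2 ratios were between -0.49 and 0.29.

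The 14 named genes with high ratios described here were at most 104 CPM in any of the 12 cells. Ankrd37, an ankyrin repeat protein, measured 25.9, 20.7, 16.7, 12.4 and 8.92 CPM in the Metaphase I and 0, 0, 5.76, 0, 6.33, 0 and 0 CPM in the Pachytene cells (log2 ratio 2.72, and 2.72 without the 2 cells), and Dennd1a, an exchange factor for Rab GTPases, 18.7, 58.1, 37.3, 17.7 and 20.8 CPM in the Metaphase I and 0, 13.8, 0, 2.7, 6.33, 13.9 and 0 CPM in the Pachytene cells (log2 ratio 2.34, and 2.25 without the 2 cells). Neither overlapped between the groups, and both share exon sequence with genes on the opposite strand. Caprin2, an RNA-binding protein, measured 7.26, 35.4, 40.2, 29.2 and 104 CPM in the Metaphase I and 0, 1.53, 1.15, 5.4, 17.2, 12.5 and 0 CPM in the Pachytene cells (log2 ratio 2.79, and 1.99 without the 2 cells), with Metaphase I replicate 18 the highest. Etfa, a subunit of the mitochondrial electron transfer flavoprotein, measured 31.1, 89.5, 6.86, 45.1 and 86.3 CPM in the Metaphase I and 0, 1.53, 6.91, 27, 8.14, 2.77 and 1.79 CPM in the Pachytene cells (log2 ratio 2.74, and 2.29 without the 2 cells). Nr1d2, a nuclear receptor of the circadian clock, measured 0, 34.1, 4.9, 29.2 and 32.7 CPM in the Metaphase I and 0, 7.65, 6.91, 2.7, 1.81, 1.39 and 1.79 CPM in the Pachytene cells (log2 ratio 2.34, and 1.94 without the 2 cells). Kmt5b, a histone H4 methyltransferase, measured 3.11, 79.5, 18.6, 7.96 and 62.5 CPM in the Metaphase I and 0, 1.53, 2.3, 17.5, 13.6, 5.55 and 5.38 CPM in the Pachytene cells (log2 ratio 2.23, and 1.71 without the 2 cells), and Mms22l, a DNA replication and repair factor, 19.7, 24, 15.7, 25.7 and 8.92 CPM in the Metaphase I and 0, 0, 1.15, 16.2, 0, 0 and 5.38 CPM in the Pachytene cells (log2 ratio 2.22, and 2.22 without the 2 cells). The others were Sdf2, Akap9, Vps13d, Nat14, Ccdc59, Sipa1l2 and Atxn7l2, with log2 ratios of 2.20 to 2.88. For these 14 genes the log2 ratio without the 2 cells was 1.54 to 2.72, in cells that are among the 12 used to pick them. In the Aurka-high cells the 14 log2 ratios were between -0.82 and 1.81. There Sdf2, Caprin2, Etfa, Nat14, Ccdc59 and Mms22l had the other direction. When Aurka was the only limit applied, Akap9 had a log2 ratio of -0.090, against 2.83. Metaphase I replicate 18 was the highest of its group for Sdf2, Akap9, Caprin2, Vps13d, Ccdc59, Sipa1l2 and Atxn7l2.

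**Figure D3:**
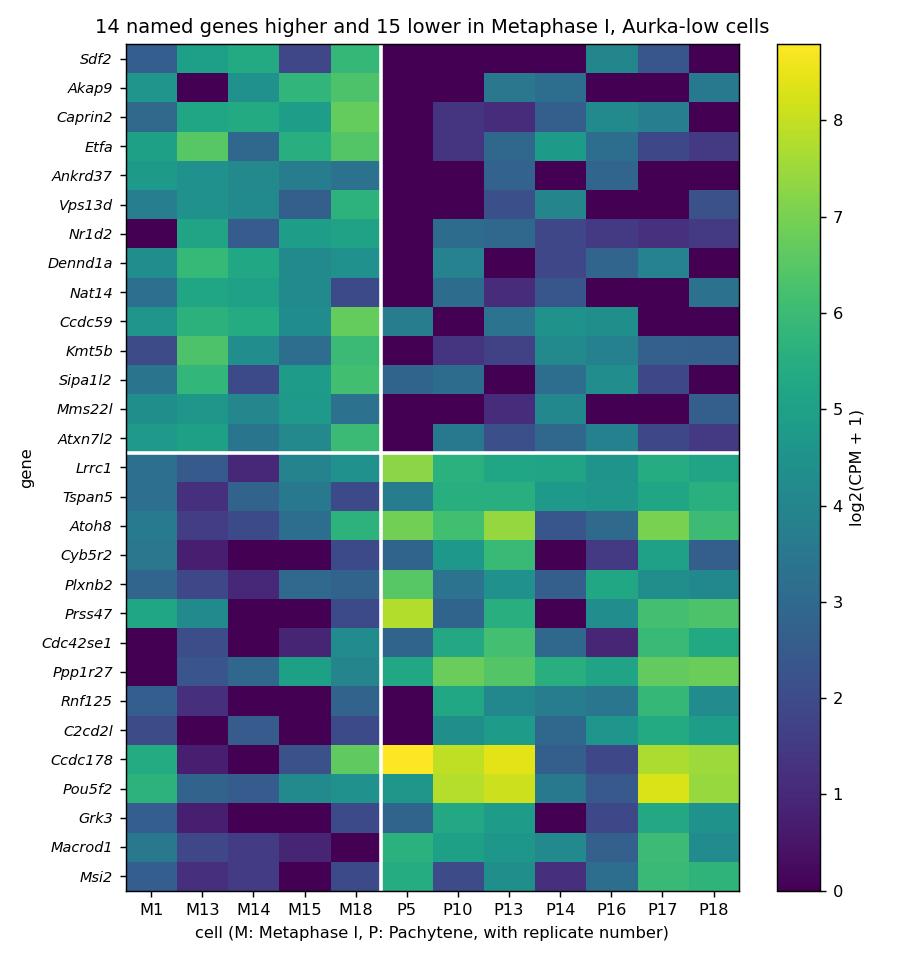
The named genes with high ratios (14, top) and the 15 with the lowest (bottom) in the 12 kept cells, as log2(CPM + 1), Metaphase I cells left and Pachytene cells right of the white line. Pou5f2, Ccdc178 and Atoh8 are dark in P14 and P16 as in M13 and M14, while Ppp1r27, Tspan5 and Lrrc1 are brighter in all 7 Pachytene cells than in any Metaphase I cell.

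Other genes with no overlap between the groups were chosen here after their values were seen. Kdm1a, a histone demethylase, ran over 42.5 to 164 CPM in the Metaphase I cells and 12.1 to 39.2 CPM in the Pachytene cells (log2 ratio 1.64). Zfp207, a spindle and kinetochore protein also called BuGZ, ran over 122 to 217 CPM in the Metaphase I cells and 36.4 to 107 CPM in the Pachytene cells (log2 ratio 1.36), and Adam2, a sperm surface protein made from the spermatocyte stage on, over 855 to 1157 CPM in the Metaphase I cells and 588 to 816 CPM in the Pachytene cells (log2 ratio 0.43). Of those below, Kpna2, an importin, ran over 91.1 to 108 CPM in the Metaphase I cells and 132 to 309 CPM in the Pachytene cells (log2 ratio -0.93). Optn, an autophagy receptor, ran over 32.7 to 76.7 CPM in the Metaphase I cells and 78.8 to 218 CPM in the Pachytene cells (log2 ratio -1.34), and Pdk2, a kinase that inhibits pyruvate dehydrogenase, over 18.6 to 40.4 CPM in the Metaphase I cells and 44.5 to 142 CPM in the Pachytene cells (log2 ratio -1.33). Of the 35 genes above, 30 were also over 2-fold higher, and of the 27 below, 20 were over 2-fold lower.

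Crossover genes over 2-fold higher in the Metaphase I cells made 23.5% of the list, against 15.5% of all measured genes. On so short a list this is a difference of few genes, and Hfm1 among them was chosen with its values known. Of 17 measured crossover genes 4 were over 2-fold higher (Hfm1, Mlh3, Shoc1 and Mcmdc2) and 1 lower (Msh5), with a median log2 ratio of 0.59. With the 2 cells left out, 5 were higher and 0 lower, of which 2 (Hfm1 and Mcmdc2) were among the 4, with a median of 0.69. The median was 0.21 when Metaphase I replicate 13 was left out. Among the Aurka-high cells 1 of 17 was higher and the median was 0.07. Mlh3, a MutL homolog that resolves crossover intermediates (chromosome 12, 85234520 to 85270599, minus strand), measured 118, 259, 102, 160.1 and 292 CPM in the Metaphase I and 18.2, 124, 25.3, 98.5, 119, 70.7 and 133 CPM in the Pachytene cells (log2 ratio 1.14, and 0.74 without the 2 cells). It was 0.74 without the 2 cells. Shoc1, a partner of the crossover factors, had 125 CPM in Metaphase I replicate 18 and at most 22.1 CPM in the other 4, and its log2 ratio of 1.36 was -0.26 without the 2 cells. The summed level of the list was 586, 1073, 656, 747 and 779 CPM in the Metaphase I and 691, 640, 312, 553, 587, 578 and 514 CPM in the Pachytene cells, of which replicate 13 was the lowest.

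Of 12 measured synaptonemal complex and axis genes 1, Sycp2, was over 2-fold higher and 0 lower, a share of 8.33% that is below the 15.5% of all measured genes. The median was 0.54, and it was 0.26 when Metaphase I replicate 13 was left out and 0.036 with Aurka as the only limit. Without the 2 cells it was 4 and 0, Sycp2 not among the 4 (Sycp1, Syce2, Tex12 and Smc3), with a median of 0.58, and in the Aurka-high cells 0 and 0 (0.11). Sycp2, a protein of the chromosome axis (chromosome 2, 178345293 to 178407685), measured 730.0, 1240, 809.7, 994 and 5132 CPM in the Metaphase I cells, of which replicate 18 was the highest, and 416 to 1092 CPM in the 7 Pachytene cells, so the groups overlapped. Its log2 ratio of 1.31 was 0.48 without the 2 cells. The central element genes Syce2 and Tex12 had log2 ratios of 0.95 and 0.94, and 1.03 and 1.20 without the 2 cells. The summed level of the list was 3722, 6150, 4100, 4774 and 7110 CPM in the Metaphase I and 5332, 2817, 2671, 4188, 4333, 2758 and 3084 CPM in the Pachytene cells. Pachytene replicates 5, 14 and 16 lay within the Metaphase I range, and replicates 10, 13, 17 and 18 below it. In the Aurka-high cells it was 2126 to 2878 in the Metaphase I cells and 2034 to 2748 in the Pachytene cells, all below the Metaphase I cells of the comparison.

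Early prophase genes had smaller ratios. Of 13 measured pre-pachytene genes 0 were over 2-fold either way, with a median of 0.30, and 2 were higher without the 2 cells (0.38). Hormad1, a HORMA-domain protein of unsynapsed axes, measured 296, 609, 314, 440.5 and 249.9 CPM in the Metaphase I and 72.7, 193, 104, 419.7, 373, 179 and 142 CPM in the Pachytene cells (log2 ratio 0.85, and 0.82 without the 2 cells). Its Pachytene values in replicates 14 and 16 were within the Metaphase I range and those of the other 5 below it. Tex101, a germ cell surface protein, measured 523, 818, 756, 459.9 and 139.8 CPM in the Metaphase I and 957, 207, 77.2, 328, 459.6, 198 and 156 CPM in the Pachytene cells, so that the highest value of all 12 was in Pachytene replicate 5. With the 2 cells left out, the groups of Tex101 did not overlap, and the log2 ratio was 1.42, against 0.66 with them.

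Of 19 measured genes of the piRNA pathway, which silences transposons in the germ line, 5 were over 2-fold higher (Tdrkh, Mov10l1, Asz1, Rnf17 and Exd1) and 0 lower, with a median of 0.38. The 5 were 26.3% of the list, against 15.5% of all measured genes. Leaving out the 2 cells, 2 were higher and the median was 0.42, and in the Aurka-high cells 0 and 0.03. Asz1, a mitochondrial protein of piRNA processing, measured 62.2, 184, 77.4, 76.1 and 104 CPM in the Metaphase I and 6.06, 42.9, 15, 60.7, 60.6, 33.3 and 64.5 CPM in the Pachytene cells (log2 ratio 1.30, and 1.10 without the 2 cells), and 1 Metaphase I cell was below the highest Pachytene cell. Tdrkh, a tudor-domain partner of PIWI proteins, measured 51.8, 271, 95.1, 149 and 53.5 CPM in the Metaphase I and 6.06, 73.5, 41.5, 85, 91.4, 30.5 and 41.2 CPM in the Pachytene cells (log2 ratio 1.22, and 1.21 without the 2 cells).

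Of 21 germ cell RNA-binding and translation regulators, 4 were over 2-fold higher (Pum2, Patl2, Rnf17 and Rbmxl2) and 1 lower (Papolb), with a median of 0.19 (0.08 without the 2 cells, where 4 were higher, 1 of them, Patl2, among the 4 named). Pum2 and Rbmxl2 were at 187 and 217 CPM in Metaphase I replicate 18 and at most 34.3 and 24.5 CPM in the other 4.

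Of 16 histone variants and chromatin genes of meiosis, 4 were over 2-fold higher and 0 lower, with a median of 0.54. The 4 were 25% of the list, against 15.5% of all measured genes. The numbers were the same without the 2 cells (0.57), and 2 of 14 were higher in the Aurka-high cells (0.18). H2bc1, the testis-specific H2B (chromosome 13, 23933773 to 23934156, minus strand), measured 34.2, 56.8, 28.4, 46 and 11.9 CPM in the Metaphase I and 12.1, 3.06, 10.4, 6.75, 15.4, 2.77 and 0 CPM in the Pachytene cells (log2 ratio 2.15, and 2.52 without the 2 cells). The overlap lay in Metaphase I replicate 18, and without the 2 cells all Metaphase I cells were above, with a log2 ratio of 2.52 (1.22 in the Aurka-high cells). H3f4, a testis H3 gene, had 26 counts in the Metaphase I and 0 in the Pachytene cells, at least 8.43-fold higher with 3 counts over the group in place of 0. H2ac1 and Hat1, a histone acetyltransferase, had log2 ratios of 1.27 and 1.04. Histone genes are short and alike, so reads may be shared among copies.

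ATF4 targets and tRNA synthetases passed 2-fold about as often as, or less often than, all measured genes, at 18.8% and 5% higher against 15.5%, and both lists had a wide spread within each group. Of 16 measured ATF4 and amino acid response genes 3 were over 2-fold higher (Chac1, Eif4ebp1 and Cth) and 1 lower (Sesn2), with a median of 0.35. Without the 2 cells 3 were higher and 1 lower (0.35), with Slc7a5 in place of Eif4ebp1. Eif4ebp1, a repressor of translation initiation, was at 29.7 CPM in Metaphase I replicate 18 and at most 6.19 CPM in the other 4, and its log2 ratio of 1.14 turned to -0.50 without the 2 cells. Among the Aurka-high cells 0 of 13 were higher and 1 lower (0.18). Chac1, which degrades glutathione and whose upstream window holds the ATF4 letters shown above (chromosome 2, 119351229 to 119354381, plus strand), measured 0, 61.5, 92.1, 14.2 and 2.97 CPM in the Metaphase I and 0, 12.2, 0, 0, 55.2, 0 and 10.8 CPM in the Pachytene cells. Metaphase I replicates 13 and 14 and Pachytene replicate 16 were the 3 highest, and the log2 ratio was 1.53, and 1.61 without the 2 cells. In the Aurka-high cells it ran over 0 to 1.26 CPM (median 0) in Metaphase I and had no count in Pachytene. Sesn2, a sestrin that restrains mTORC1, measured 3.11, 0, 0, 2.65 and 0 CPM in the Metaphase I and 12.1, 6.12, 18.4, 2.7, 11.8, 8.32 and 10.8 CPM in the Pachytene cells (log2 ratio -2.36, and -2.13 without the 2 cells), a direction opposite to the 3 others. The summed level of the list was 687, 1144, 1071, 714 and 765 CPM in the Metaphase I and 563, 571, 472, 609, 1222, 447 and 647 CPM in the Pachytene cells, with Pachytene replicate 16 the highest of the 12.

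Cytosolic tRNA synthetases, which charge tRNAs with amino acids, had 1 of 20 members over 2-fold higher (Nars) and 0 lower, with a median of 0.54. Without the 2 cells it was also 1 and 0, but Gars in place of Nars (0.49), without Metaphase I replicate 13 the median was 0.29, and in the Aurka-high cells 0 were higher and 1 lower (0.09). Their summed level was 1962, 3470, 2503, 2077 and 2657 CPM in the Metaphase I and 1854, 1793, 1000, 2286, 3193, 1203 and 1414 CPM in the Pachytene cells, so Pachytene replicates 14 and 16 lay among the Metaphase I cells and the other 5 below them. Among the Aurka-high cells it was 898 to 1246 in the Metaphase I cells and 930 to 1479 in the Pachytene cells. Tars, the threonyl-tRNA synthetase with the letters in its window (chromosome 15, 11382301 to 11399665, minus strand), measured 34.2, 168, 88.2, 91.1 and 53.5 CPM in the Metaphase I and 48.5, 52.1, 10.4, 66.1, 113, 5.55 and 44.8 CPM in the Pachytene cells (log2 ratio 0.83, and 0.96 without the 2 cells). Aars and Gars held the letters too, but 13 of the 20 synthetases matched a window, under 80%, so no share is given for this short list. Of the 16 ATF4 and amino acid response genes 13 matched, and Chac1 was the 1 with the letters.

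**Figure D4:**
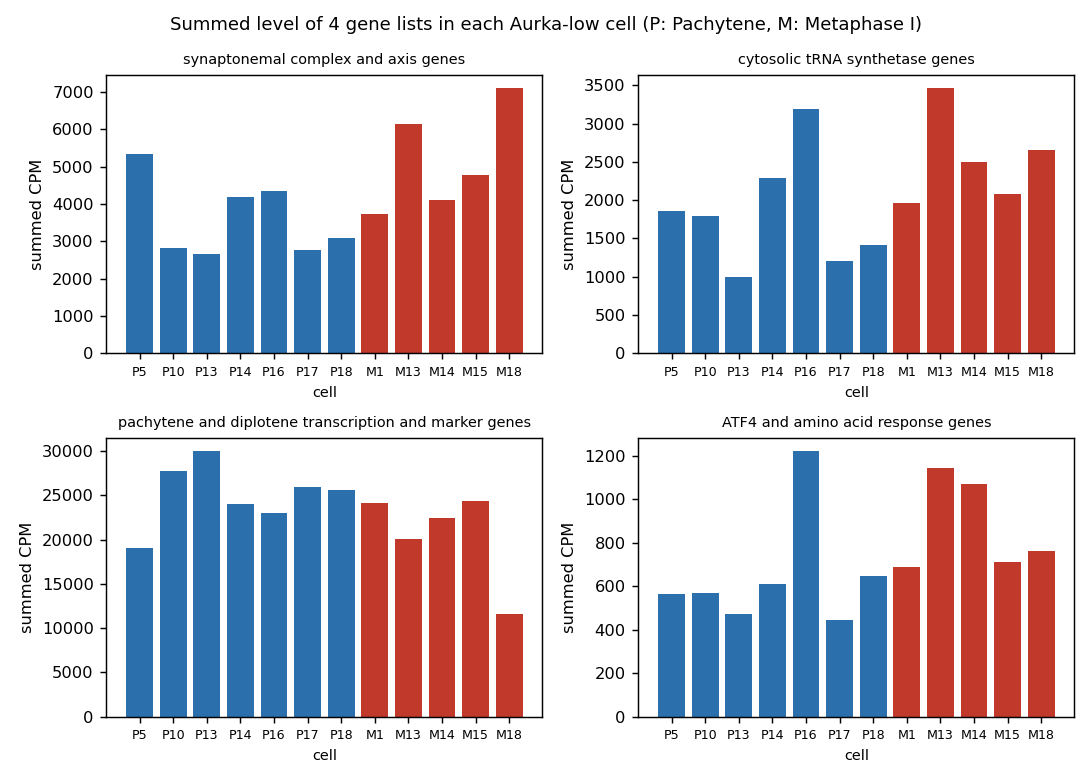
Summed CPM of 4 gene lists in each kept cell (bars from 0), Pachytene in blue and Metaphase I in red. Synaptonemal complex genes and tRNA synthetases stand higher in P14 and P16 than in P10, P13, P17 and P18, and P16 has the highest bar for the ATF4 list, at 1222 CPM.

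The unfolded protein response, eIF2 and p53 lists had at most 1 member past 2-fold in each direction. Of 20 measured unfolded protein response genes and chaperones 0 were over 2-fold either way (median 0.03). Herpud1, a factor of protein degradation at the endoplasmic reticulum, measured 187, 329, 239, 197 and 101 CPM in the Metaphase I and 18.2, 124, 131, 95.8, 214, 87.4 and 115 CPM in the Pachytene cells (log2 ratio 0.90, and 0.89 without the 2 cells). Of 14 genes of eIF2, its kinases and phosphatases 1 was higher and 1 lower (0.21), and of 10 p53 and apoptosis genes 1 and 1 (-0.05). Immediate early genes, 7 of them measured, split into 2 higher and 2 lower (median 0.38), and of 6 without the 2 cells 1 was higher and 0 lower, with a median of -0.46. Egr4, a zinc finger factor among them, measured 11.4, 16, 24.5, 15.9 and 68.4 CPM in the Metaphase I and 0, 10.7, 19.6, 0, 0.905, 1.39 and 3.58 CPM in the Pachytene cells (log2 ratio 2.20, and 1.35 without the 2 cells).

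Of 18 heat shock genes 5 were over 2-fold higher (Hspb1, Hspd1, Hspe1, Hsf2 and Chordc1) and 0 lower, with a median of 0.12, and 4 without the 2 cells (0.16). The 5 were 27.8% of the list, against 15.5% of all measured genes, a difference of few genes on so short a list. Hspb1, a small heat shock protein, measured 0, 10.7, 14.7, 9.73 and 53.5 CPM in the Metaphase I cells and had 1 count over the 7 Pachytene cells. It moved with Sertoli markers, given below, and their part in it was not tested. Hspe1, the mitochondrial co-chaperonin, measured 5.18, 34.7, 18.6, 6.19 and 17.8 CPM in the Metaphase I and 0, 0, 0, 13.5, 7.24, 4.16 and 3.58 CPM in the Pachytene cells (log2 ratio 1.79, and 1.58 without the 2 cells), and shares exon sequence with Hspd1 on the opposite strand.

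No measured gene of entry into M phase was over 2-fold higher in the Metaphase I cells. Of 21 kinases and cyclins 0 were over 2-fold higher and 4 lower (Ccna1, Ccnb1, Aurkb and Aurkc), with a median of 0.15 and, without the 2 cells, 0 and 4 (0.04). The 4 were 19.0% of the list, against 10.4% of all measured genes. For medians over cells the list's median was -0.26, the other direction. Ccna1 and Aurkc were also among the lower genes of the pachytene and diplotene list. Ccna1, the germ cell cyclin A, measured 21.8, 10.7, 31.4, 14.2 and 149 CPM in the Metaphase I and 242, 98, 85.3, 48.6, 28, 158 and 55.5 CPM in the Pachytene cells (log2 ratio -1.16, and -1.96 without the 2 cells). Aurkb, the aurora kinase of the centromere, measured 16.6, 0.668, 0, 0.884 and 2.97 CPM in the Metaphase I and 6.06, 26, 20.7, 1.35, 1.81, 33.3 and 14.3 CPM in the Pachytene cells (log2 ratio -1.60, and -1.64 without the 2 cells), and Aurkc, its meiotic relative, 14.5, 15.4, 1.96, 10.6 and 23.8 CPM in the Metaphase I and 66.6, 1.53, 38, 6.75, 12.7, 61 and 28.7 CPM in the Pachytene cells (log2 ratio -1.16, and -1.15 without the 2 cells). All 4 genes overlapped between the groups. The summed level of the list was 2960, 2837, 2569, 2877 and 1862 CPM in the Metaphase I and 2945, 2702, 2260, 2552, 2779, 3182 and 2616 CPM in the Pachytene cells, and among the Aurka-high cells 3468 to 5503 in the Metaphase I cells and 3366 to 5402 in the Pachytene cells. Aurka, on which the cells were selected, was not counted among the 21.

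Of 31 spindle checkpoint and anaphase promoting complex genes 5 were over 2-fold higher (Mad2l1, Bub1b, Anapc1, Anapc16 and Cdc23) and 0 lower, with a median of 0.11, and without the 2 cells 0 were over 2-fold either way (0.25). The 5 were 16.1% of the list, against 15.5% of all measured genes. Bub1b, the checkpoint protein BubR1 (chromosome 2, 118598211 to 118641591), measured 56, 169.7, 82.3, 66.3 and 95.2 CPM in the Metaphase I and 6.06, 64.3, 43.8, 70.2, 53.4, 26.4 and 28.7 CPM in the Pachytene cells. Metaphase I replicates 1 and 15 lay below the highest Pachytene cell, and the log2 ratio was 1.15, 0.96 without the 2 cells and 0.63 in the Aurka-high cells. Of 33 spindle, centrosome and kinetochore genes 7 were higher and 1, Cep55, lower (0.24), and 6 and 1 without the 2 cells (0.30), 4 of the 6 shared with the 7. The 7 were 21.2% of the list, against 15.5% of all measured genes. Kif15, a spindle kinesin, measured 23.8, 122, 180.4, 134 and 726 CPM in the Metaphase I and 0, 75, 54.2, 83.7, 91.4, 30.5 and 95 CPM in the Pachytene cells, so that Metaphase I replicate 18 had the highest value. Its log2 ratio of 1.93 was 0.67 without the 2 cells.

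Subunits of okadaic acid sensitive phosphatases had 5 of 33 measured members over 2-fold higher (Ppp2r3a, Ppp2r5a, Ppp2r5d, Ppp6r1 and Ppp6r2) and 2 lower (Ppp2cb and Ppp2r2d). These were 15.2% and 6.06% of the list, against 15.5% and 10.4% of all measured genes. The list's median was 0.10, and without the 2 cells 6 were higher and 2 lower (0.03). In the Aurka-high cells 0 were higher and 1 lower (0.00). In 2 of the 33 every Metaphase I cell was above every Pachytene cell, against 0.323% of all measured genes. Ppp2r3a, a regulatory B subunit of PP2A (chromosome 9, 101105084 to 101251795, minus strand), measured 2.07, 15.4, 1.96, 11.5 and 62.5 CPM in the Metaphase I cells and had no count in any Pachytene cell. Its 61 summed counts were at least 19.8-fold more per total count than 3 counts over the Pachytene cells. Ppp6r1, a regulatory subunit of PP6, measured 7.26, 17.4, 7.84, 5.31 and 11.9 CPM in the Metaphase I and 0, 0, 2.3, 4.05, 4.52, 4.16 and 3.58 CPM in the Pachytene cells (log2 ratio 1.58, 1.35 without the 2 cells and 0.95 in the Aurka-high cells). Both genes share exon sequence with an unnamed gene on the opposite strand, and several of these values rest on 1 to 3 counts. Ppp2r2d, a B55 subunit of PP2A, measured 7.26, 12, 15.7, 26.5 and 17.8 CPM in the Metaphase I and 194, 26, 65.7, 33.7, 4.52, 25 and 41.2 CPM in the Pachytene cells (log2 ratio -1.75, and -1.04 without the 2 cells), with Pachytene replicate 5 the highest.

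Of 20 sex chromosome inactivation and DNA damage response factors 6 were over 2-fold higher (Atm, Topbp1, Mdc1, Chek2, Setdb1 and Trp53bp1) and 0 lower, with a median of 0.59. The 6 were 30% of the list, against 15.5% of all measured genes. With the 2 cells left out, 1 was higher and 2 lower, with a median of 0.25, and Trp53bp1 turned direction. Topbp1, an activator of the kinase ATR on the silent X and Y, measured 55, 102, 68.6, 60.1 and 205 CPM in the Metaphase I and 0, 38.3, 25.3, 90.4, 57.9, 23.6 and 34 CPM in the Pachytene cells. Its log2 ratio of 1.33 was 0.66 without the 2 cells. X-linked genes gave 0.0392% to 0.0735% of counts in the Metaphase I and 0.0262% to 0.121% in the Pachytene cells, and the highest share was that of Pachytene replicate 5.

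Of all measured genes 15.5% were over 2-fold higher and 10.4% over 2-fold lower, and shares either way compare with both together. Of the lists of general expression, those of mRNA decay, translation initiation and the proteasome had 15.2%, 6.45% and 2.94% of members past 2-fold either way, and those of glycolysis and of mitotic and S-phase genes 30.0% and 30.8%. These were 2 higher (Parn and Xrn2) and 3 lower (Cnot6l, Lsm14a and Upf1) of 33 mRNA decay genes, with a median of 0.09, and 2 and 0 without the 2 cells, where Cnot6l and Lsm14a turned direction. They were 1 (Eif4g1) and 1 (Eif3b) of 31 translation initiation factors (-0.03), and 1 (Psma2) and 0 of 34 proteasome subunits (0.11). Eif4a3, a helicase of the exon junction complex, measured 177, 327, 158, 139.7 and 44.6 CPM in the Metaphase I and 18.2, 91.9, 96.8, 103, 110.4, 65.2 and 120.0 CPM in the Pachytene cells (log2 ratio 0.96, and 1.03 without the 2 cells), and without the 2 cells its groups did not overlap (1.03). Of 20 glycolysis and lactate genes 1 was higher (Pkm) and 5 lower (Hk1, Gpi1, Aldoart2, Pgk2 and Slc16a7), with a median of -0.25, and without the 2 cells 1 and 3 (0.01), with Gpi1 and Aldoart2 turning direction. Hk1, a hexokinase, measured 34.2, 36.7, 22.5, 56.6 and 11.9 CPM in the Metaphase I and 24.2, 61.2, 113, 66.1, 33.5, 136 and 91.4 CPM in the Pachytene cells (log2 ratio -1.19, and -1.13 without the 2 cells). Of 13 mitotic and S-phase genes 4 were higher (Mcm3, Rrm2, Ccne2 and Cdc6) and 0 lower (0.56), and of 12 without the 2 cells 3 and 2 (0.50), with Rrm2 and Cdc6 turning direction.

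**Figure D5:**
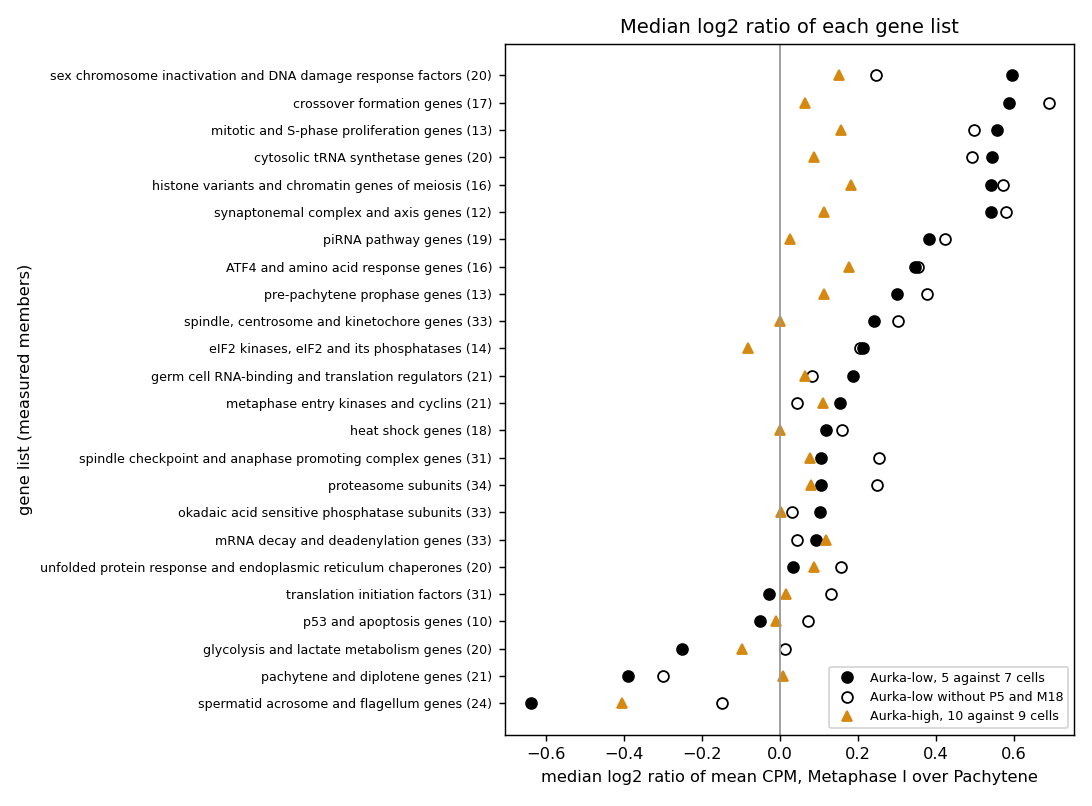
Median log2 ratio of each list with 10 or more measured members (number in brackets), Metaphase I over Pachytene, in the 12 kept cells (filled), without the 2 cells that stood apart (open) and in the Aurka-high cells (triangles). The crossover, tRNA synthetase, histone, synaptonemal complex and mitotic and S-phase lists lie near 0.5 to 0.7 with and without the 2 cells. In the Aurka-high cells these lists lie at 0.07 to 0.18. Without Metaphase I replicate 13, not plotted, the crossover, synaptonemal complex and tRNA synthetase medians were 0.21, 0.26 and 0.29.

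Markers of Sertoli cells were found in the Metaphase I cells. Clu, a gene of the selection rule, measured 0, 22.7, 18.6, 31.8 and 169.6 CPM in them and had no count in any Pachytene cell, so the 146 counts were at least 47.3-fold more per total count than 3 counts over the Pachytene cells. Vim, an intermediate filament gene, measured 0, 24.7, 1.96, 0.884 and 41.6 CPM and Cst9, a cystatin of Sertoli cells, 0, 10.7, 12.7, 9.73 and 59.5 CPM, again with no count in Pachytene. Of the 9 defining Sertoli markers, 5 (Wt1, Amh, Rhox5, Aard and Gata4) had no count in the Metaphase I cells and all 9 had none in the Pachytene cells, and their summed level was 0 to 214 CPM and 0 CPM. These counts moved with Hspb1, and their part in the other differences was not tested. Among all 20 Metaphase I cells, Clu was at 18.6 CPM or more in replicates 13 to 20 and at most 2.15 CPM in replicates 1 to 12. In the 20 Pachytene cells it was at most 6.45 CPM. Of the kept Metaphase I cells only replicate 1 is in the set with little Clu, so the comparison also runs along replicate number. The labels do not state what replicate numbers stand for, and their part was not tested. The Leydig marker Star measured 4.15, 4.01, 7.84, 15 and 47.6 CPM in the Metaphase I and 6.06, 0, 0, 12.1, 2.71, 1.39 and 5.38 CPM in the Pachytene cells, with the other 4 of 5 Leydig markers at 0 in both.

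Spermatid genes were selected against through Acrv1, and their counts are a description. Of 24 measured acrosome and flagellum genes, Acrv1 included, 11 were over 2-fold lower in the Metaphase I cells and 0 higher, and of the 23 others 10 were lower, with a median of -0.62. Of the 24, 6 had enough counts only with the 2 cells in, 4 of them lower. In the 18 measured without the 2 cells, 3 were higher and 1 lower (-0.15). Smcp, a protein of the sperm mitochondrial capsule, measured 24.9, 5.34, 4.9, 1.77 and 26.8 CPM in the Metaphase I and 303, 0, 0, 0, 0, 56.9 and 43 CPM in the Pachytene cells, the highest being Pachytene replicate 5. The 10 defining spermatid markers summed to 204 to 377 CPM in the Metaphase I and 198 to 1291 CPM in the Pachytene cells, and Acrv1, one of them, was limited by the selection. Spermatid chromatin genes had 0 higher and 2 lower of 7 (-0.55), and 3 higher and 0 lower of 5 without the 2 cells (1.66). Hmgb4 measured 182 CPM in Pachytene replicate 5 and at most 6.94 CPM in any other cell.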

How the data were processed

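Single spermatocytes were sequenced with a modified STRT-seq protocol, per the labels. The authors deposited raw counts per gene, 1 column for each cell. UMI-tools, STAR, featureCounts and the build GRCm38 are named in the submitters' processing notes. For strand setting, annotation release and removal of PCR copies: not given in the sources used here. Hence intervals cover counting error only.

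Counts were divided by each cell's total and multiplied by 1000000 (Python 3.11.15, pandas 2.3.3, numpy 2.4.6). Means over cells were compared with 1 CPM added, for genes with 20 or more counts over the kept cells. Genes called higher or lower passed 2-fold. Intervals are exact at 95% (scipy 1.17.1). Calculations were tested on simulated counts. Labels name no animal or culture, so no test was run. Alternatives covered scaling (edgeR 4.0.16, DESeq2 1.42.0, R 4.3.3), pseudocount, count minimum, thinning, selection limits and left-out cells. The members and gene lists were chosen with earlier results of these data known. Named genes were the 3 markers, the genes of the selection, the 15 highest and 15 lowest ratios under the stated limits and, in each list, up to 4 members with the largest ratios and any without overlap. Of these, 1 gene is not reported here. No cells were merged: the closest pair differed beyond sampling noise.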

Additional observations from a re-analysis of the deposited data

Results flagged for a closer look

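In 22 groups of values, 7 values, from 4 cells, lay far from the rest of their group, where chance gives about 1 in 20 groups. Values of the same cell are not independent of each other. In Pachytene replicate 5, Atf4 was at 0 CPM, X-linked genes gave 0.121% of counts and mitochondrial genes 7.12%. In Metaphase I replicate 18, mitochondrial genes gave 11.2% and the pachytene and diplotene genes summed to 11572 CPM. The crossover genes summed to 312 CPM in Pachytene replicate 13, below the other 6 cells. The ATF4 and amino acid response genes summed to 1222 CPM in Pachytene replicate 16, above the other 6.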

How the results depend on the processing

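Over the alternatives run, Hfm1 kept a log2 ratio of 1.51 to 2.38, Atf4 of 0.49 to 1.12 and Dazl of 0.13 to 1.44. The groups of Hfm1 overlapped with the Aurka limit at 400 CPM and with Aurka as the only limit. The number of genes over 2-fold higher, 1682, was 519 with 10 CPM added, 680 with 100 summed counts required, 3143 with no minimum, 869 with cells thinned to 160000 counts, 935 with Aurka under 200 CPM and 970 without Pachytene replicate 5 and Metaphase I replicate 18. Leaving out 1 cell at a time gave 1031 (without Metaphase I replicate 18) to 1869. The number lower, 1131, was 307, 445, 2191 and 654 under the first 4 of these and 2328 with Aurka as the only limit, and 924 to 1389 with 1 cell left out. The 35 genes above became 23 with 100 summed counts, 15 with thinning, 89 without the deepest cell of each group, 182 and 14 with Aurka limits of 200 and 400 CPM, 2 with Aurka alone and 155 without the 2 cells, and 43 to 116 with 1 cell left out. The 27 below became 12 with thinning, 61 without the deepest cells, 162 and 14 with the limits of 200 and 400 CPM, 0 with Aurka alone and 120 without the 2 cells, and 30 to 90 with 1 cell left out. Fewer cells make such separation easier and more make it harder. Akap9 went from 2.83 to -0.090 with Aurka alone, and the cause was not tested. Of 891 values of named genes under alternatives 884 moved by less than the spread over cells, and of 802 list medians 789 did. That spread, the larger standard deviation of the 2 groups in log2 units, was 1.60 for Dazl and 2.63 for Atf4. For Dazl all 27 alternatives stayed within it, over 0.13 to 1.44. With so wide a limit these counts do not show that the ratios were stable. Leaving out the 2 cells was chosen after seeing the data. No paired analysis was possible because each group is 1 sample and equal replicate numbers mark no shared animal or culture. In Pachytene replicate 5, 3 counts equal 18.2 CPM, so genes near that level could not be detected there.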
